A study of Rattus norvegicus with 24 samples.

Results

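The comparison of 24h_Giv_Cyt with 6h_Giv_Cyt follows microRNAs (miRs) of insulin-producing INS1 cells between 6 h and 24 h of exposure to pro-inflammatory cytokines in the presence of the lysine deacetylase inhibitor Givinostat. INS1 cells are a rat insulinoma line that stands in for the pancreatic β-cell. The arrays were chosen by the group in their titles, 3 for 24h_Giv_Cyt and 3 for 6h_Giv_Cyt, of 24 arrays in all. Cells of both groups received 125 nM Givinostat 1 h before the cytokines, which were IL-1β at 150 pg/ml and IFN-γ at 0.1 ng/ml. The groups thus shared the drug and the cytokines and differed in the time of exposure. The remaining 18 arrays held 3 for each of 6 further groups: Cyt (the same cytokines without Givinostat), Giv_Ctrl (125 nM Givinostat without cytokines) and Ctrl (neither), each at 6 h and at 24 h. All cells were of 1 line, without other cell types of the islet. The labels do not say whether the 3 arrays of a group came from separate cultures, and the deposited description calls them technical replicates, so p-values measure only the spread between these arrays, which may be technical.

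A miR is a short RNA that pairs, mainly through its seed (bases 2 to 8), with target mRNAs and lowers their translation or stability. miR-146a and miR-146b are known to be induced through NF-κB and to target TRAF6 and IRAK1, signalling components of the IL-1 receptor pathway. miR-375 and miR-7 are abundant in the β-cell, and the miR-29 family is known to target extracellular matrix mRNAs and, in β-cells, Mcl1 and the monocarboxylate transporter Mct1.

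The mature sequences below, written 5′ to 3′ with the seed in capitals, were taken from RefSeq (build GRCr8), which held 685 of the 758 miRs on the array under the same name. The pair of miR-146 family members and the 3 of the miR-29 family are shown because they had the largest positive log2FC among the detected miRs, and each set shares a seed. miR-146b-5p is 24 bases long and differed from the 22 bases of miR-146a-5p, counted from the 5′ end of miR-146a-5p, by G18A and U21C and by the added bases at its end.
miR-146a-5p: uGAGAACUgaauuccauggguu
miR-146b-5p: uGAGAACUgaauuccauaggcugu
miR-29a-3p: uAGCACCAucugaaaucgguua
miR-29b-3p: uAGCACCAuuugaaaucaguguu
miR-29c-3p: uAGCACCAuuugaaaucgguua
miR-3584-5p, shown because it passed the test, and miR-212-3p and miR-132-3p, which share a seed and had negative log2FC, were as follows.
miR-3584-5p: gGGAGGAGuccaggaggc
miR-212-3p: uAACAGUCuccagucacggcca
miR-132-3p: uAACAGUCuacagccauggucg
On the rn4 build that the files used, the probes of miR-146a-5p lay at chr10:28476387-28476405 and those of miR-146b-5p at chr1:251558065-251558084. The probes of miR-29a-3p lay at chr4:58107816-58107834, next to 1 locus of miR-29b-3p (chr4:58108190-58108211), and those of miR-29c-3p at chr13:110968102-110968122, next to the other (chr13:110967572-110967593). In the RefSeq gene table the hairpin of miR-3584 lay within the span of Itprip.

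Each array carried 16 spots for each of 758 miRs. The signal used here is the log2 of the median foreground intensity of a spot after quantile normalization, averaged over the 16 spots, and a log2FC is the mean of the 24 h arrays minus that of the 6 h arrays on this scale. The scanner software marks spots that are well above background, and an array counted as measuring a miR well above background where 8 or more spots were so marked. A miR was detected where this held on all 3 arrays of at least 1 of the groups. Of the 758 miRs, 143 were detected, 126 of them on all 6 arrays, and 560 did not exceed background on any of the 6. The dimmest miR above background had a signal of 5.74 to 6.05 on the 6 arrays, so that a value below this range lay in the background. No background was subtracted, so a log2FC of a dim miR is compressed.

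The arrays of 24h_Giv_Cyt were brighter before normalization. The background-subtracted intensity had a 75th percentile of 571, 542 and 487 on replicates 1, 2 and 3 of 24h_Giv_Cyt and 386, 374 and 317 on those of 6h_Giv_Cyt. It was taken over 117 miRs that every one of the 24 arrays measured above background. Without normalization the median log2FC of the detected miRs was 0.41, against 0.011 after it, so every change below is relative to the bulk of miRs. The 6h_Giv_Cyt arrays lay on slide 3 with replicate 3 of 24h_Giv_Cyt, and the other 24h_Giv_Cyt arrays lay on slide 4. Of the 6h_Giv_Cyt arrays, replicate 3 differed from the others. Over the detected miRs it correlated with replicates 1 and 2 at r = 0.922 and 0.941, while these correlated with each other at r = 0.995, and 36 of the 143 detected miRs differed on it by over 0.5 from the mean of the other 2 arrays (26 higher, 10 lower). Of the 24h_Giv_Cyt arrays, replicate 1 differed from the others to a lesser degree. It correlated with replicates 2 and 3 at r = 0.979 and 0.982, while these correlated at r = 0.995. By over 0.5, 3 detected miRs differed on it from the mean of the other 2 arrays. Its deviations from the group mean correlated at r = 0.87 with those of replicate 3 of 6h_Giv_Cyt. Leaving out both arrays was not tested. A log2FC of a miR or list may move by over 1.5 times or change sign without replicate 3 of 6h_Giv_Cyt. The value without that array then stands beside it.

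From 6 h to 24 h, 3 of the 758 miRs (0.396%) rose and none fell at an adjusted p below 0.05 and an absolute log2FC above 0.1375 (limma on array means, Benjamini-Hochberg adjustment). They were miR-146a-5p, miR-3584-5p and miR-877. Of these 3, miR-146a-5p was detected. miR-3584-5p exceeded background on 2 of the 24 h arrays and none of the 6 h arrays, and miR-877 did not exceed background on any of the 6. With the 75th-percentile scaling of the processed signal 7 miRs rose and 2 fell, and with the pooled correlation over the spots 8 rose and 6 fell. An unadjusted p below 0.05 was found for 67 miRs (8.84%). Among the detected miRs it was found for 13 (9.09%), 78 had a positive and 65 a negative log2FC, and 2 had an absolute log2FC above 0.5, both of the miR-146 family. Without replicate 3 of 6h_Giv_Cyt, 67 detected miRs had a positive and 76 a negative log2FC, with a median of -0.0097. The median standard error of the detected miRs was 0.13, and for 109 of them (76.2%) the 95% interval of the log2FC lay within 0.5 of 0. The groups did not overlap for 107 of all miRs (14.1%), of which 37 (4.88%) were higher and 70 (9.23%) lower at 24 h, and for 9 of the detected miRs (6.29%), of which 6 (4.2%) were higher and 3 (2.1%) lower.

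**Figure D1:**
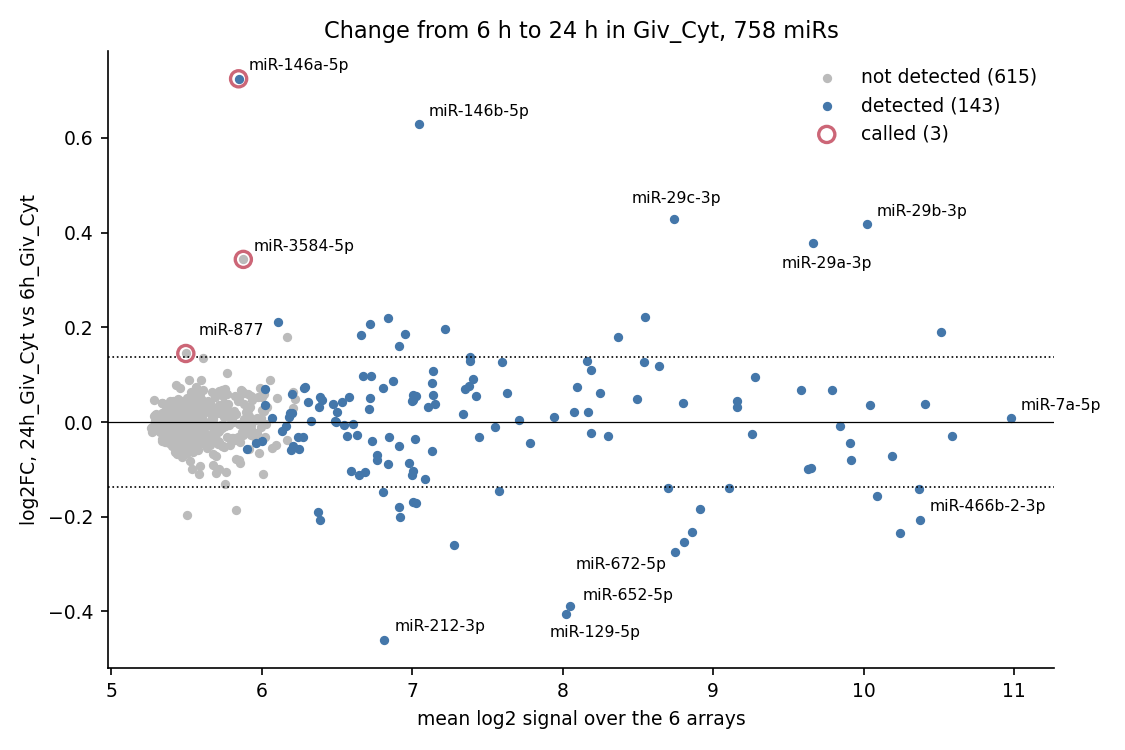
The log2FC of 24h_Giv_Cyt vs 6h_Giv_Cyt (vertical axis) is plotted against the mean log2 signal over the 6 arrays (horizontal axis) for 758 miRs, 143 of them detected. Dotted lines mark an absolute log2FC of 0.1375, and the rings mark the 3 called miRs, which lie at the dim end of the signal range.

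miR-146a-5p, a feedback inhibitor of IL-1 receptor signalling, had a log2 signal of 6.15, 6.28 and 6.20 on the 24 h arrays and of 5.51, 5.48 and 5.47 on the 6 h arrays. It was well above background on each array at 24 h and in the background on each at 6 h, and the groups did not overlap. The log2FC was 0.72 (SE 0.03, limma adjusted p = 1.6e-11). As the 6 h arrays measured no level of it, the fold is a bound, at least 1.16-fold higher at 24 h. The background-subtracted intensity, as the mean of the 16 spots, was 49.9, 42.5 and 34.8 at 24 h and 0.187, -1.54 and -3.5 at 6 h. Within slide 3, where replicate 3 of 24h_Giv_Cyt lay with the 6h_Giv_Cyt arrays, the log2FC was 0.72. That sets 1 array against 3, so that its adjusted p of 8.1e-09 rests on the spread within the remaining groups and assumes that the lone 24 h array varies as they do. With slide as a fixed block the log2FC was 0.73 (adjusted p = 1.7e-08).

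The 16 spots of miR-146a-5p were 8 copies each of 2 probes, printed here because they read the miR differently.
first probe: aacccatggaattcagttc
second probe: aacccatggaattcagttct
The first pairs with bases 4 to 22 of the miR and the second with bases 3 to 22. With the first, the mean log2 signal was 5.93 at 24 h and 5.50 at 6 h, a log2FC of 0.43. With the second it was 6.49 and 5.47, a log2FC of 1.02. All 8 spots of the second probe, and on average 1.67 of the first, were marked well above background on the 24 h arrays. Both probes were higher at 24 h, and the log2FC of the miR averages them. The other arm of the hairpin, miR-146a-3p, did not exceed background on any of the 6 arrays.

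miR-146b-5p was detected at both times. Its log2 signal was 7.22, 7.58 and 7.27 at 24 h and 7.02, 6.81 and 6.36 at 6 h. All 24 h arrays were above all 6 h arrays, with the lowest value on replicate 3 of 6h_Giv_Cyt. The log2FC of 0.63 (SE 0.18, adjusted p = 0.202) did not pass the limma test on array means. Without replicate 3 of 6h_Giv_Cyt it was 0.44 (adjusted p = 0.522). Its 2 probes gave log2FC of 0.54 and 0.72. The third miR of the NF-κB responsive list, miR-155-5p, did not exceed background on any of the 6 arrays, so that 1 of 3 members was called, against 0.396% of all miRs. As the list was chosen with earlier results of these data known, this share is not independent evidence.

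miR-3584-5p had a log2 signal of 5.92, 6.07 and 6.16 at 24 h and of 5.77, 5.69 and 5.67 at 6 h. The groups did not overlap, and all 6 h arrays were in the background. The log2FC was 0.34 (SE 0.05, limma adjusted p = 0.0014), a fold of at least 1.04, and both of its probes gave 0.34. Within slide 3, again with 1 array at 24 h and the spread of the remaining groups, the log2FC was 0.45 (adjusted p = 0.00059), and with slide as a fixed block it was 0.40 (adjusted p = 0.0011). The call was lost when the 6 arrays were fitted alone (adjusted p = 0.289). miR-877, whose hairpin lay within the span of Abcf1, had a log2 signal of 5.54, 5.59 and 5.58 at 24 h and 5.43, 5.42 and 5.43 at 6 h. Its difference in measured signal was 0.14 (SE 0.03, adjusted p = 0.011), from which no fold can be read. The miR-877 call was lost when the 6 arrays were fitted alone (adjusted p = 0.137). Within slide 3 the difference was 0.15, and with that lone 24 h array it was not called (adjusted p = 0.251). It was also lost without replicate 2 or 3 of 24h_Giv_Cyt or replicate 1 or 2 of 6h_Giv_Cyt (adjusted p 0.0502 to 0.0725). miR-762, also in the background, had an adjusted p of 0.002 with a log2FC of 0.13, under the threshold. With it, 4 miRs (0.528%) had an adjusted p below 0.05 at any log2FC.

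**Figure D2:**
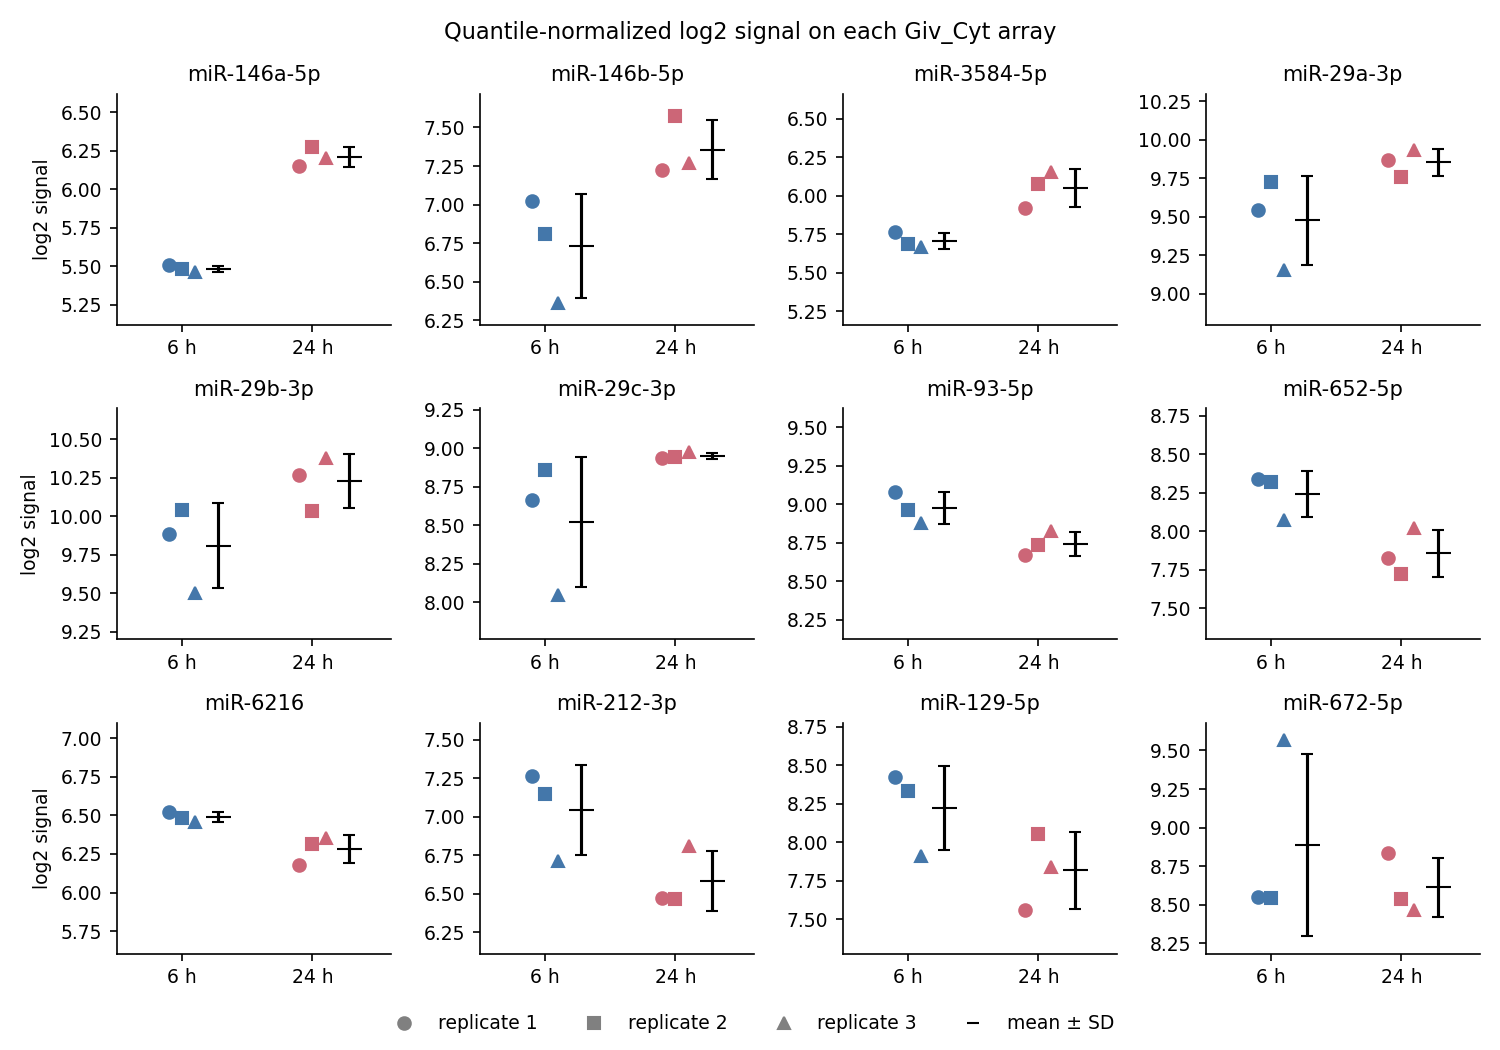
The log2 signal of 12 miRs on each Giv_Cyt array is shown at 6 h and 24 h, with a symbol per replicate and the mean ± SD (n = 3 arrays) at the side. The axes differ in level between panels. The groups are well apart for miR-146a-5p, and replicate 3 of 6h_Giv_Cyt (triangle) is the lowest 6 h array for the miR-29 family and the highest for miR-672-5p.

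The miR-29 family had the next largest positive log2FC among the detected miRs. miR-29c-3p had a log2 signal of 8.94, 8.94 and 8.97 at 24 h and 8.66, 8.86 and 8.05 at 6 h, miR-29a-3p of 9.86, 9.76 and 9.93 against 9.54, 9.73 and 9.16, and miR-29b-3p of 10.27, 10.04 and 10.38 against 9.89, 10.04 and 9.50. The groups did not overlap for miR-29a-3p and miR-29c-3p and met for miR-29b-3p. The log2FC were 0.43 (SE 0.19) for miR-29c-3p, 0.42 (SE 0.16) for miR-29b-3p and 0.38 (SE 0.15) for miR-29a-3p. None of the 3 was called by limma (adjusted p = 0.474, 0.364 and 0.388). The median of the family was 0.42, beside 0.011 over all detected miRs, and 0.22 beside -0.0097 without replicate 3 of 6h_Giv_Cyt. The lowest 6 h value of each member was on replicate 3 of 6h_Giv_Cyt, and without it the log2FC were 0.19, 0.26 and 0.22. The adjusted p without it ranged up to 0.79.

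Further detected miRs whose 24 h arrays all lay above the 6 h arrays were miR-125b-5p and miR-204-5p. miR-125b-5p, a homologue of lin-4, had a log2 signal of 7.07, 7.11 and 6.95 at 24 h and 6.91, 6.93 and 6.74 at 6 h, with a log2FC of 0.19 (adjusted p = 0.274), or 0.12 (adjusted p = 0.605) without replicate 3 of 6h_Giv_Cyt. miR-204-5p, an inhibitor of insulin production through MafA, had 6.75 on each 24 h array and 6.62, 6.67 and 6.40 at 6 h, with a log2FC of 0.18 (adjusted p = 0.4), or 0.10 (adjusted p = 0.769) without that array. Neither passed the limma test. Of the probes of miR-204-5p, 1 gave a log2FC of 0.32 and the other of 0.047. Those of miR-125b-5p likewise gave 0.32 and 0.051.

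No miR fell by the test. The 3 detected miRs whose 24 h arrays all lay below the 6 h arrays were miR-652-5p, miR-93-5p and miR-6216. miR-93-5p, a seed relative of the miR-17 family encoded within Mcm7, had a log2 signal of 8.67, 8.74 and 8.83 at 24 h and 9.08, 8.96 and 8.88 at 6 h, a log2FC of -0.23 (SE 0.07, limma adjusted p = 0.231). miR-652-5p had 7.83, 7.72 and 8.02 against 8.34, 8.32 and 8.07, a log2FC of -0.39 (SE 0.18, adjusted p = 0.549). For miR-6216 the values were 6.18, 6.31 and 6.35 against 6.52, 6.48 and 6.46, with a log2FC of -0.21 (adjusted p = 0.363). The probes of miR-6216 gave log2FC of -0.30 and -0.11. With slide as a fixed block the log2FC were -0.17 for miR-93-5p, -0.21 for miR-652-5p and -0.20 for miR-6216. Without normalization between arrays the log2FC were positive, at 0.26 for miR-93-5p, 0.036 for miR-652-5p and 0.15 for miR-6216. Their direction is therefore relative to the other miRs on the arrays.

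miR-212-3p and miR-132-3p, which are transcribed together and respond to CREB, had negative values. miR-212-3p had a log2 signal of 6.47, 6.47 and 6.81 at 24 h and 7.27, 7.15 and 6.71 at 6 h. Replicate 3 of 6h_Giv_Cyt lay among the 24 h arrays, and the log2FC was -0.46 (SE 0.17, limma adjusted p = 0.35) with it and -0.63 (adjusted p = 0.173) without it. For miR-132-3p the values were 6.61, 7.02 and 6.82 against 7.28, 7.10 and 6.68, with log2FC of -0.20 (adjusted p = 0.913) and -0.37. The brain-enriched miR-129-5p had 7.56, 8.05 and 7.84 at 24 h and 8.42, 8.33 and 7.91 at 6 h. Its groups overlapped, and its log2FC was -0.40 (SE 0.13, adjusted p = 0.279), or -0.56 (adjusted p = 0.072) without replicate 3 of 6h_Giv_Cyt. With slide as a fixed block the log2FC were -0.27 for miR-212-3p, -0.18 for miR-132-3p and -0.44 for miR-129-5p. Without normalization between arrays the log2FC was positive for miR-132-3p (0.21) and miR-129-5p (0.040). For miR-212-3p it ranged from -0.72 to -0.045 over the 16 other settings. The direction of these miRs is thus also relative to the other miRs on the arrays.

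No miR known for β-cell identity was called. miR-7a-5p, the brightest miR at 6 h, had a log2 signal of 10.73, 11.05 and 11.16 at 24 h and 11.06, 11.05 and 10.81 at 6 h. Its log2FC was 0.0086, with a 95% interval of -0.26 to 0.28, and -0.072 without replicate 3 of 6h_Giv_Cyt. miR-375-3p, an inhibitor of insulin secretion, had 9.65, 9.94 and 10.04 against 10.10, 10.01 and 9.77, a log2FC of -0.081 with an interval of -0.33 to 0.17, and -0.18 without that array. For both, the groups overlapped. Of 14 miRs of muscle, liver, blood, endothelium and fibroblasts, 12 did not exceed background on any of the 6 arrays, and the mean log2 signal over the list was 5.67 to 5.69 at 24 h and 5.68 to 5.75 at 6 h. Summed over the list, the background-subtracted intensity, as the mean of the 16 spots of each miR, was 130 to 1565 at 24 h and 109 to 157 at 6 h. Its highest value, on replicate 1 of 24h_Giv_Cyt, held 1 spot of miR-143-3p at 21327, while the next brightest of the 16 spots read 8.49. Without miR-143-3p the sums were 128 to 227 and 107 to 157. The muscle miR-206-3p was detected, at 7.07, 6.83 and 6.86 against 6.86, 6.87 and 7.55, with its highest value on replicate 3 of 6h_Giv_Cyt. Its log2FC was -0.17, or 0.059 without that array. Its part in the other results was not tested.

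Other families had smaller values, and no member was called beyond those above. All 5 members of the miR-30 family had a positive log2FC (0.077 to 0.21), the largest for miR-30a-5p (0.21; adjusted p = 0.88), but without replicate 3 of 6h_Giv_Cyt miR-30a-5p had 0.050 and the members ranged from -0.034 to 0.083, 2 of them negative. The 8 listed members of the let-7 family, which restrain growth, lay between -0.072 and 0.067, and all 8 were negative without that array (-0.17 to -0.059). let-7g-5p, which shares their seed but was not on the list, had -0.14 with all arrays. On replicate 3 of 6h_Giv_Cyt let-7g-5p differed by -0.33 from the mean of the other 2 arrays. The 4 detected members of the miR-15/16 family lay between -0.0076 and 0.032, and all 4 were negative without it (-0.19 to -0.11). miR-23b-3p, with 10.59, 10.51 and 10.71 at 24 h against 10.47, 10.53 and 10.24, had a log2FC of 0.19 (adjusted p = 0.302), or 0.10 without that array. miR-21-5p, an anti-apoptotic miR, had 7.22, 7.40 and 7.32 against 7.33, 7.19 and 6.83 and a log2FC of 0.20 (adjusted p = 0.906), or 0.055 without it. Of 34 listed miRs of the imprinted Dlk1-Dio3 cluster 3 were detected, and of the miR-181 family none of 4. The list did not hold the whole cluster. miR-134-3p and miR-485-3p, which lay outside the list, were also detected. The 3 detected reference miRs (miR-103-3p, miR-107-3p and let-7c-5p) lay between -0.14 and 0.036 with all arrays, and all 3 were negative without replicate 3 of 6h_Giv_Cyt (-0.23 to -0.092).

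**Figure D3:**
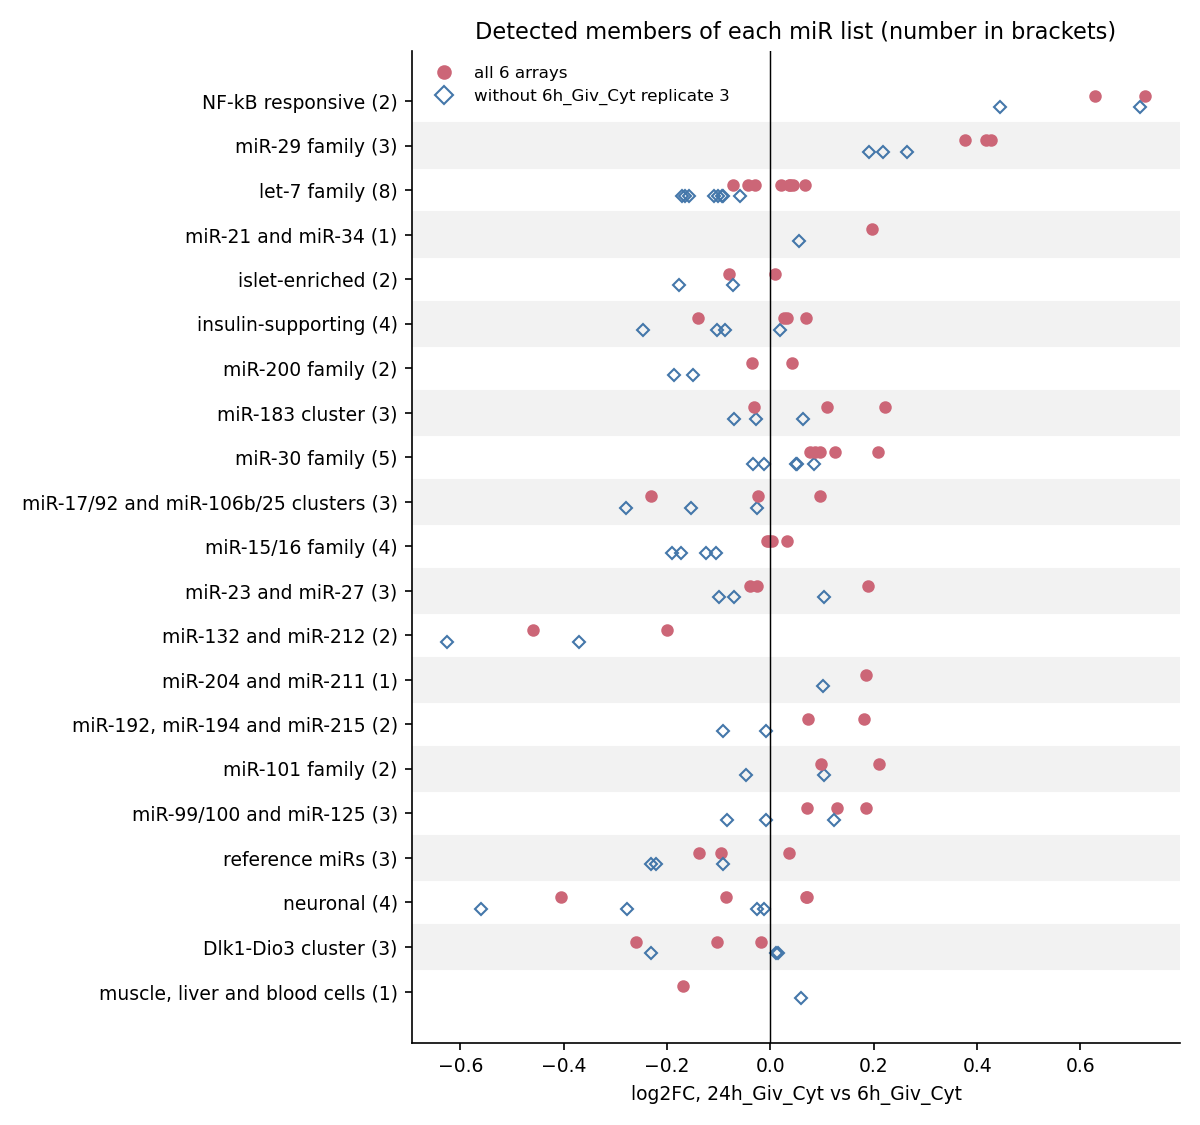
The log2FC of each detected list member (horizontal axis) is shown with all 6 arrays (filled circles) and without replicate 3 of 6h_Giv_Cyt (open diamonds), with the number of detected members in brackets. The members of the miR-146 and miR-29 groups stay above 0 and miR-132 and miR-212 below 0 in both, whereas the let-7 family moves from around 0 to below it.

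When the 16 spots entered the model as correlated values, as in the methods of the study, 14 miRs (1.85%) were called, 8 (1.06%) higher and 6 (0.792%) lower at 24 h, and 11 of them were among the detected miRs (7.69% of these), with a pooled correlation over the spots of 0.0373. In this fit the spots of an array count as further observations, although they were hybridized with the same RNA. Its 14 calls comprised the 3 above and, among those higher, miR-101a-3p, miR-96-5p, miR-29b-3p, miR-29c-3p and miR-146b-5p. Those lower were miR-652-5p, miR-212-3p, miR-672-5p, miR-290, miR-206-3p and miR-223-3p. miR-96-5p, a sensory-cell miR of the miR-183 cluster, had a log2 signal of 8.58, 8.63 and 8.76 at 24 h and 8.50, 8.68 and 8.12 at 6 h, and its log2FC was 0.22 with all arrays and 0.064 without replicate 3 of 6h_Giv_Cyt. miR-101a-3p, which targets Ezh2, had 6.10, 6.20 and 6.33 against 6.17, 6.05 and 5.79, with log2FC of 0.21 and 0.10. The groups overlapped for both. miR-672-5p had 8.83, 8.53 and 8.47 against 8.55, 8.54 and 9.57, so that its log2FC of -0.27 turned to 0.066 without that array. miR-206-3p turned likewise. For both, replicate 1 of 24h_Giv_Cyt was the highest 24 h array, by 0.33 and 0.22 over the mean of the other 2. It was kept in the values without replicate 3 of 6h_Giv_Cyt. miR-290 gave -0.19, and miR-223-3p, a myeloid miR in the background on all 6 arrays, -0.18. With slide as a fixed block these were -0.099 and -0.16. Of the 13 candidate miRs that the study selected on these arrays, 10 were detected. The test on array means called 2 of the 13, against 0.396% of all miRs, namely miR-146a-5p and miR-3584-5p, of which the latter was not among the 10. As the list was chosen on these arrays it is not independent evidence. The detected candidate miR-466b-2-3p had 10.57, 10.15 and 10.08 against 10.05, 10.03 and 11.34. Its log2FC was -0.21 with replicate 3 of 6h_Giv_Cyt and 0.23 without it. Replicate 1 of 24h_Giv_Cyt, 0.46 above the mean of the other 2, was kept in both.

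The change with time in Giv_Cyt was set against that in Cyt, Giv_Ctrl and Ctrl, which share no arrays with it. With the test on array means, 6 miRs (0.792%) were called from 6 h to 24 h in Cyt and none in Giv_Ctrl or Ctrl. An unadjusted p below 0.05 was found for 104 miRs (13.7%) in Cyt, 30 (3.96%) in Giv_Ctrl and 39 (5.15%) in Ctrl, and the pooled correlation test called 18 (2.37%), 2 (0.264%) and 5 (0.66%). miR-146a-5p had a mean log2 signal of 5.46 ± 0.04 at 6 h and 5.46 ± 0.03 at 24 h in Ctrl, 5.42 ± 0.02 and 5.46 ± 0.04 in Giv_Ctrl, 5.62 ± 0.03 and 6.05 ± 0.06 in Cyt, and 5.48 ± 0.02 and 6.21 ± 0.06 in Giv_Cyt (SD, n = 3 arrays). It was well above background in the 24 h groups with cytokines and on no array of the other 6 groups. Its time effect in Giv_Cyt exceeded that in Cyt by 0.30 (SE 0.05, limma adjusted p = 0.0034), the 1 miR called for this difference (0.132%). It exceeded that in Giv_Ctrl by 0.68 (adjusted p = 1.5e-08) and that in Ctrl by 0.73 (adjusted p = 5.3e-09). For the differences from Cyt, Giv_Ctrl and Ctrl, 28 (3.69%), 48 (6.33%) and 53 (6.99%) of the miRs reached an unadjusted p below 0.05. With the pooled correlation over spots the calls were 5 (0.66%), 13 (1.72%) and 17 (2.24%). For miR-146a-5p the difference from Cyt was not called with slide as a fixed block (adjusted p = 0.098), when the test was limited to 168 miRs, those detected in at least 1 of the 8 groups (adjusted p = 0.132) or when the 4 groups were fitted alone (adjusted p = 0.174), at log2 differences of 0.31, 0.30 and 0.30. The Cyt groups also differed in slide and brightness. The 24h_Cyt arrays lay on slides 1 and 2, with a 75th percentile of the background-subtracted intensity of 596 to 1003. The 6h_Cyt arrays lay on slides 2 and 4, with 378 to 413. At 6 h the mean of miR-146a-5p in Giv_Cyt lay below that in Cyt and at 24 h above it, as a description of the means. Both 6 h means were in the background, so the difference of 0.30 includes a gap between signals that measured no level.

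miR-3584-5p and miR-93-5p were also called for the difference from Giv_Ctrl, so that 3 miRs (0.396%) were called there and 1 (0.132%) for the difference from Ctrl. For miR-3584-5p the time effects were 0.34 in Giv_Cyt and 0.52 in Cyt, and the difference from Giv_Ctrl was 0.35 (SE 0.07, adjusted p = 0.029). For miR-93-5p the mean was 8.88 ± 0.05 at 6 h and 9.12 ± 0.11 at 24 h in Giv_Ctrl and 8.98 ± 0.10 and 8.74 ± 0.08 in Giv_Cyt, a difference in time effects of -0.47 (SE 0.10, adjusted p = 0.029). In Cyt it was 8.95 ± 0.07 and 8.77 ± 0.09, close to Giv_Cyt (difference -0.06, SE 0.10). These 2 calls were lost under several settings and without single arrays. With slide as a fixed block the limma adjusted p was 0.559 for miR-3584-5p and 0.969 for miR-93-5p. The 24h_Giv_Ctrl arrays lay on slides 3 and 4 and the 6h_Giv_Ctrl arrays on slides 1 and 2. Those of 24h_Ctrl lay on slide 4 and those of 6h_Ctrl on slide 2. In Giv_Ctrl and Ctrl time was thus confounded with slide. The miR-3584-5p call was lost without any of 9 arrays (adjusted p 0.059 to 0.104), namely each array of 24h_Giv_Ctrl, replicates 2 and 3 of both 24h_Giv_Cyt and 6h_Giv_Cyt, and replicates 1 and 3 of 6h_Giv_Ctrl. The miR-93-5p call was lost without any of 8 arrays (adjusted p 0.063 to 0.091), namely replicates 1 and 2 of both 24h_Giv_Cyt and 6h_Giv_Cyt, replicates 1 and 3 of 24h_Giv_Ctrl, and replicates 2 and 3 of 6h_Giv_Ctrl. For miR-146b-5p the differences from Cyt, Giv_Ctrl and Ctrl were 0.28, 0.46 and 0.61 (SE 0.26 each), none of them called, and without replicate 3 of 6h_Giv_Cyt 0.093, 0.27 and 0.42.

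**Figure D4:**
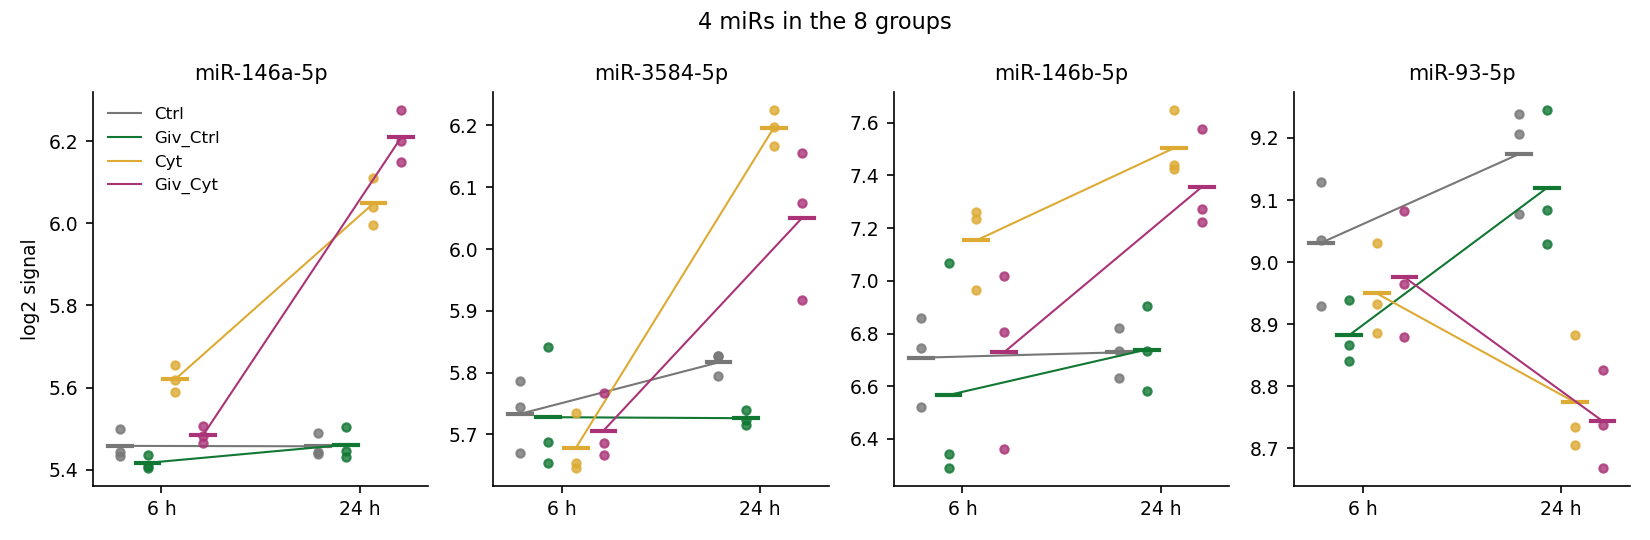
The log2 signal of 4 miRs is shown in Ctrl, Giv_Ctrl, Cyt and Giv_Cyt at 6 h and 24 h, with a point per array and a bar at the mean of 3 arrays. The axes differ between panels. The lines for miR-146a-5p and miR-3584-5p climb in the groups with cytokines and change by less than 0.1 without them, and those for miR-93-5p run down with cytokines and up without.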

How the data were processed

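Total RNA of INS1 cells was hybridized by the authors to 24 one-colour Agilent rat miR arrays, 3 in each of 8 groups. The authors deposited scanner files (Agilent Feature Extraction 10.7.3.1) with spot intensity on a linear scale, not normalized between arrays, and a table of log2 values per miR and sample, which was used as an alternative. No spot was saturated. The number of arrays limits the precision.

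As in the study's methods, the median foreground signal was taken without background correction, 434 negative and 281 positive control spots were removed, and arrays were quantile-normalized before log2. The 16 spots of each miR were averaged per array, since they share RNA, and limma 3.58.1 (R 4.3.3; lmFit, eBayes) was fitted to all 24 arrays with 8 group means; the study's pooled correlation over spots was an alternative. p was adjusted by Benjamini-Hochberg over 758 miRs, and a miR was called at an adjusted p below 0.05 and an absolute log2FC above 0.1375, which is a fold of 1.1. The fit was tested on simulated data. Further alternatives were the median over spots, mean signal, normexp (offset 50), no normalization, processed signal scaled to the 75th percentile, slide, replicate block, fewer miRs or groups, other thresholds, and leaving out each array; array brightness as a covariate was chosen after seeing the data. The members and lists were chosen with earlier results of these data known. Named were miRs called by either test, detected miRs whose groups do not overlap, called interaction miRs, the members of largest change in each list, the study's candidates and reference miRs, the brightest miRs and other arms; miR-762, miR-211-3p and miR-143-3p were named after their values were seen. Figures used matplotlib 3.10.9 in Python 3.11.15.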

Additional observations from a re-analysis of the deposited data

Results flagged for a closer look

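5 differences in the change with time between Giv_Cyt and another treatment passed the limma test of the difference itself and are listed for that reason. For miR-146a-5p they were 0.30 against Cyt (adjusted p = 0.0034), 0.68 against Giv_Ctrl (adjusted p = 1.5e-08) and 0.73 against Ctrl (adjusted p = 5.3e-09). The last 2 were called under each alternative run, with adjusted p up to 0.00027 and 2.4e-05. All of the differences for miR-146a-5p include 6 h means that were in the background, so none gives a fold. The difference against Giv_Ctrl was 0.35 for miR-3584-5p and -0.47 for miR-93-5p (adjusted p = 0.029 for both). Over all alternatives, single arrays left out included, the adjusted p ranged from 3.3e-05 to 0.507 for miR-146a-5p against Cyt, from 2.3e-14 to 0.559 for miR-3584-5p and from 0.0081 to 0.969 for miR-93-5p. The mean of miR-93-5p was higher at 24 h than at 6 h in Giv_Ctrl (by 0.24) and lower in Giv_Cyt (by 0.23), and neither change passed the test on its own.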

How the results depend on the processing

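The call of miR-146a-5p held under each of the 16 other settings and without each of the 24 arrays (log2FC 0.49 to 2.77 and 0.69 to 0.75). As the 6 h arrays measured no level of it, these log2FC give no fold. With the processed signal, spots below a floor of 4.44 were set to that floor. The count of 3 called miRs was 14 with the pooled correlation over the spots (8 higher, 6 lower), 21 without normalization between arrays (all higher), 9 with the 75th-percentile scaling of the processed signal (7 higher, 2 lower), 1 when the compared groups were fitted alone, and 2 to 4 without single arrays. The count for the difference from Cyt (1) was 5 with the pooled correlation, 0 when the 168 miRs detected in any of the 8 groups were tested alone, with slide as a fixed block or with the groups alone, and 1 to 2 without single arrays. The count for the difference from Giv_Ctrl (3) was 13 with the pooled correlation, 5 with the processed signal, 6 without a log2FC threshold, 1 with those 168 miRs alone, with slide as a fixed block, with the groups alone or with array brightness as a covariate, and 1 to 4 without single arrays. The count for the difference from Ctrl (1) was 17 with the pooled correlation, 2 without normalization, 6 with the processed signal and 1 to 2 without single arrays. The cause of these shifts was not tested.

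Without normalization the log2FC reversed for miR-93-5p (0.26), miR-652-5p (0.036), miR-6216 (0.15), miR-132-3p (0.21), miR-129-5p (0.040), miR-672-5p (0.24), miR-290 (0.17), miR-206-3p (0.33), miR-223-3p (0.026) and miR-466b-2-3p (0.19), and so did the difference of miR-93-5p from Giv_Ctrl (0.12). With array brightness as a covariate it reversed for miR-672-5p (0.060), miR-206-3p (0.052), miR-466b-2-3p (0.33) and miR-21-5p (-0.084), and with the processed signal for miR-23b-3p (-0.0018). Without single arrays the log2FC ranged from -0.45 to 0.066 for miR-672-5p, from -0.29 to 0.059 for miR-206-3p and from -0.43 to 0.23 for miR-466b-2-3p.

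The deviations of same-numbered arrays correlated at -0.92, 0.53 and -0.63, and those of differently numbered arrays at -0.75 to 0.87. With 3 arrays per group these values cannot tell whether the replicate numbers pair the samples. With the replicate block 3 miRs were called, with 1, 2 and 1 for the differences from Cyt, Giv_Ctrl and Ctrl. For 560 of the 758 miRs none of the 6 arrays measured a level above background, and the 3 arrays per group limit the rest.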

Other observations

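Among the detected miRs with a RefSeq sequence (131), 14 seeds were shared by at least 2 miRs, 40 miRs in all. The median log2FC per seed, as a description of these 6 arrays, was highest for GAGAACU (miR-146a-5p and miR-146b-5p, 0.68) and AGCACCA (the miR-29 family, 0.42) and lowest for AACAGUC (miR-132-3p and miR-212-3p, -0.33). For miR-125a-5p and miR-125b-5p, which also share a seed, it was 0.16, and for miR-103-3p and miR-107-3p -0.12. For the 9 miRs of the let-7 seed, which include let-7g-5p and miR-98-5p, it was 0.021. Without replicate 3 of 6h_Giv_Cyt these medians were 0.58, 0.22, -0.50, 0.057, -0.23 and -0.11, in the same order.

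2 miRs were well above background on all 24h_Giv_Cyt arrays and on none of 6h_Giv_Cyt. The other beside miR-146a-5p was miR-211-3p, with a log2 signal of 5.94, 6.10 and 6.17 at 24 h and 6.15, 6.02 and 6.02 at 6 h. Its groups overlapped. Without replicate 3 of 6h_Giv_Cyt, the groups did not overlap for 21 of the 143 detected miRs that were higher and 24 that were lower at 24 h. With it the counts were 6 and 3. The count without it compares 3 arrays with 2, which fail to overlap more easily than 3 with 3. The counts are therefore not alike, and the rise is not read as further changes.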
